A study of Mus musculus with 19 samples.

Results

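The genes described here are the core autophagy machinery and its cargo receptors, read in sorted dorsal root ganglion (DRG) neurons that carried either GFP alone or kindlin-1 with the integrin subunit α9 (together α9k1), and whose dorsal roots were or were not crushed. They were chosen by symbol: every gene of the table whose name starts with Atg and a digit, Ulk1 to Ulk3, the Gabarap, Map1lc3 and Wipi genes, and 17 further genes given by name, of which 16 are in the table. The rule has no threshold on a measured value, but 13 of the members belong to an autophagy group that the study chose on these samples. It found 41 genes among the 12629 of the table. Epg5, which the rule names, and Atg14, Atg2b, Atg9b and Gabarapl1 were not analysed here.

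The data were RNA-seq libraries of neurons sorted for GFP from left C5 to C8 DRGs, 8 weeks after injection of AAV5 and, in the crush groups, dorsal root crush. The 4 groups were GFP-naive (AAV5-fGFP without crush, 5 libraries), α9k1-naive (AAV5-α9-V5 and AAV5-kindlin1-GFP without crush, 6 libraries), GFP-crush (AAV5-fGFP with crush, 4 libraries) and α9k1-crush (AAV5-α9-V5 and AAV5-kindlin1-GFP with crush, 4 libraries). All groups had a virus injection and were sorted on GFP, so an uninjected DRG is not among them. The α9k1 groups were sorted on the GFP that is fused to kindlin-1, and the presence of α9 in each sorted cell was not part of the sort. According to the study's methods, α9 was driven by a CAG promoter and the other transgenes by a CMV promoter, neither of which is particular to neurons. The labels give C57BL/6 mice, papain and one RNA kit, whereas the study's methods give adult male Lewis rats, collagenase with trypsin and another kit. Reads were aligned to the mouse genome, and gene positions are on GRCm38.

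Autophagy encloses cytoplasm in a double membrane, the autophagosome, which then fuses with lysosomes. A kinase complex of ULK1 or ULK2 with ATG13, ATG101 and FIP200 (Rb1cc1) starts the process, the Beclin 1 and VPS34 complex makes the lipid PI3P at the forming membrane, ATG9A and ATG2 supply lipid, and a conjugation cascade attaches the ATG8 proteins (LC3 and GABARAP families) to it. Receptors such as NBR1 and optineurin bind both ubiquitinated cargo and ATG8 proteins. In neurons, autophagosomes form mainly in distal axons and are carried back towards the cell body.

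Expression of kindlin-1 and α9 followed the labels. Fermt1 was between 0.42 and 0.80 log2 units in the 9 GFP libraries and between 5.18 and 7.73 in the 10 α9k1 libraries. Itga9 was between 0.90 and 2.40 in the former and between 2.38 and 7.51 in the latter. Its lowest α9k1 library lay just below the highest GFP library. The α9k1 groups did not overlap each other: Fermt1 was 5.18 to 6.00 in α9k1-naive and 6.42 to 7.73 in α9k1-crush. Itga9 was 2.38 to 5.16 in the former and 5.53 to 7.51 in the latter. Differences between the α9k1 groups, and the interaction, thus join crush and the level of transgene RNA. These cannot be told apart. Libraries held 36.4 to 87.6 M read pairs, of which 47.5% to 54.1% of the reads were aligned, and 3.87% to 4.05% of the aligned bases differed from the mouse genome. Neuronal markers were abundant (Tubb3 between 9.45 and 10.80 in all libraries), but so were markers of satellite glia and Schwann cells (Fabp7 between 6.61 and 9.98). The summed level of the 8 glial markers was 13.16 to 13.45 (log2) in GFP-naive, 12.21 to 12.62 in α9k1-naive, 13.23 to 13.77 in GFP-crush and 12.37 to 13.18 in α9k1-crush. That of the 7 macrophage markers was 6.92 to 7.47 in GFP-naive and 8.22 to 9.27 in the other groups, and that of the 12 neuronal markers was 13.31 to 13.67 in GFP-naive, 12.65 to 12.96 in α9k1-naive, 13.86 to 14.38 in GFP-crush and 13.90 to 14.39 in α9k1-crush. The 4 measured markers of endothelial cells and fibroblasts summed to 9.31 to 9.63 in GFP-naive and 6.58 to 8.35 in the other groups. In sorted pools, a change in the share of a cell type and a change in RNA per cell cannot be told apart, and the part of these shifts in the results below was not tested.

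Each gene was compared between groups with limma on the authors' log2 values, with 3 covariates after the study's design: the first 3 principal components of 48 library metrics. Calls were made where the p-value, adjusted by Benjamini and Hochberg's method across the table, was under 0.1. The third component separated one group: its scores were -4.49 to -2.55 in the 4 α9k1-crush libraries and at or above -1.59 in all others. The first component was -5.79 to -2.42 in GFP-crush and -2.70 to 7.63 in α9k1-crush. The variance factor of the comparison of these groups, by which the residual variance is multiplied, was 3.11 with the covariates and 0.500 without them. Among the naive libraries, α9k1-naive replicate 4 stood apart on the third component (5.03, the others at or below 2.30) and α9k1-naive replicate 6 on the second (-2.60, the other α9k1-naive libraries at or above 2.44). Since the covariates overlap in part with the α9k1-crush group, values that involve that group are given with and without covariates. The comparisons share control groups and are not independent of each other.

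**Figure D1:**
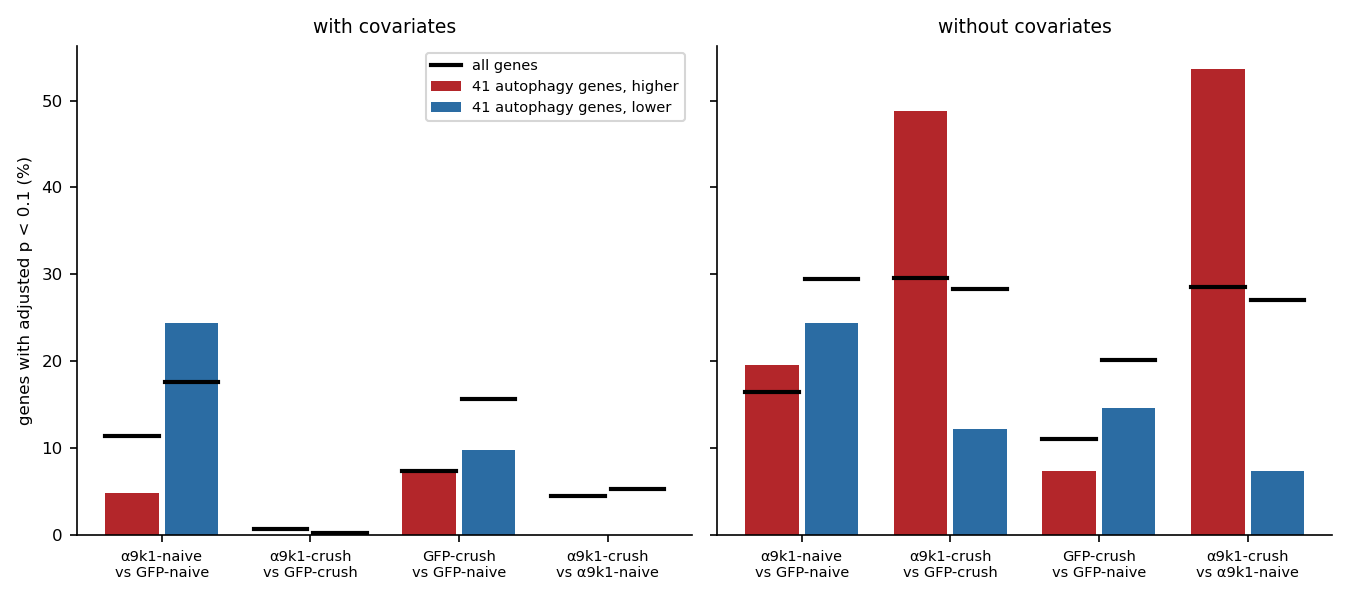
Percentage of genes called at an adjusted p under 0.1 (y axis) in each of 4 comparisons (x axis) in the limma fits with (left) and without (right) the 3 library covariates. Bars give the 41 autophagy genes called higher (red) or lower (blue), black lines give all 12629 genes. Without covariates, 48.8% of the autophagy genes and 29.6% of all genes were called higher in α9k1-crush than in GFP-crush, and with covariates none of the 41 was called. The 48.8% include 13 genes that the study chose on these samples, and of the other 28 members 25% were called higher.

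In α9k1-naive neurons, 12 of the 41 genes (29.3%) changed against GFP-naive, 2 of them upwards and 10 downwards. The background was 29.1% of all genes, 11.4% higher and 17.6% lower, so the share called was that of genes at large, and the median log2FC was -0.12 for the members and -0.08 for all genes. Vmp1 and Tbc1d14 rose. Ambra1, Wdfy3, Pik3r4, Atg9a, Atg4d, Atg13, Map1lc3b, Atg101, Tax1bp1 and Map1lc3a fell. The split shifts with the scaling: with libraries centred on their medians, 4 rose and 3 fell (26.8% of all genes called), and with each library's trend with transcript length and GC content removed, 4 rose and 3 fell (26.8%), in both cases Atg7, Nbr1, Tbc1d14 and Vmp1 upwards and Ambra1, Atg9a and Pik3r4 downwards. The counts also rest on single libraries: the number of decreases was 5 without GFP-naive replicate 1, GFP-naive replicate 2 or α9k1-crush replicate 3. Leaving out α9k1-naive replicate 6 gave 1 increase and 6 decreases, and leaving out α9k1-naive replicate 5 gave 4 increases. Without covariates, 8 were higher and 10 lower, at a background of 46.0% (16.5% higher, 29.5% lower), and 9 and 6 with the length and GC trend removed (42.5%). With covariates, 4 of the 7 macrophage markers rose, all 4 endothelial and fibroblast markers fell, 4 of the 12 neuronal markers fell and 1 rose, and 3 of the 8 glial markers fell and 2 rose.

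Vmp1 (chr11:86583865-86683836, minus strand) encodes a membrane protein of the endoplasmic reticulum that takes part in autophagosome formation. Its expression was 6.00, 5.95, 5.94, 5.78 and 5.91 in the GFP-naive libraries and from 6.48 to 6.89 with a median of 6.65 in the α9k1-naive libraries, and the 2 groups did not overlap. The increase was 0.65 ± 0.12 on the log2 scale (SE), a 1.57-fold difference (adjusted p = 0.00133), and held in each of the 19 fits that left out a single library. Vmp1 was 5.98, 6.36, 6.16 and 6.04 in GFP-crush and 6.71, 6.59, 6.74 and 6.87 in α9k1-crush, where all 4 libraries lay above all of GFP-crush. The gene shares exon positions with Mir21a on the same strand, and reads from these positions cannot be told apart.

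Tbc1d14 (chr5:36490604-36593276, minus strand), a Rab11-binding protein of recycling endosomes that regulates autophagosome formation, was 4.39, 4.36, 4.20, 4.11 and 4.08 in GFP-naive and from 4.65 to 5.10 with a median of 4.80 in α9k1-naive. Without crush it was thus higher with α9k1 in 6 of 6 libraries (log2FC = 0.47 ± 0.14, adjusted p = 0.0235), although the call was lost without α9k1-naive replicate 6 and with the replicate number as a block. Crush went the other way in GFP neurons: Tbc1d14 was 3.62, 3.90, 3.52 and 3.32 in GFP-crush, below every GFP-naive library. In α9k1-crush it was 5.12, 5.03, 5.45 and 5.30, the largest difference between the crush groups among the 41 genes in the fit without covariates.

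Ambra1 (chr2:91730134-91918849, plus strand), a scaffold that binds Beclin 1 and promotes nucleation, had the largest decrease in α9k1-naive neurons. It was 3.23, 3.27, 2.69, 3.07 and 2.94 in GFP-naive and from 1.95 to 2.41 with a median of 2.23 in α9k1-naive, with no overlap (log2FC = -1.03 ± 0.16, adjusted p = 3.12e-04). The call held in all 19 fits that left out a library. Ambra1 is among the 25% of genes with the lowest mean values, so the fit without low genes did not include it. Ambra1 was 2.83, 2.84, 2.83 and 2.70 in GFP-crush and 2.73, 3.27, 3.09 and 2.75 in α9k1-crush, so that the crush groups overlapped each other and the range of GFP-naive.

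The other large decreases were in genes of PI3P production, lipid supply and cargo recognition. Pik3r4, which encodes the VPS15 subunit of the VPS34 complex, was 3.93, 4.16, 3.39, 3.83 and 3.96 in GFP-naive and from 2.94 to 3.93 with a median of 3.76 in α9k1-naive. The raw values overlapped in most libraries, and the fitted decrease of -0.69 ± 0.18 (adjusted p = 0.0122) rests on the covariates: without them it was -0.25 ± 0.18 (adjusted p = 0.290). Atg9a, a lipid scramblase carried on vesicles to the forming membrane, was 5.83, 5.68, 5.34, 5.88 and 5.64 in GFP-naive and from 4.91 to 5.76 with a median of 5.52 in α9k1-naive. It behaved alike, with a log2FC of -0.68 ± 0.11 (adjusted p = 5.12e-04) with covariates and -0.24 ± 0.14 (adjusted p = 0.185) without. Wdfy3, a large scaffold for protein aggregates, was widely scattered, with 3.92, 4.25, 2.37, 2.91 and 3.85 in GFP-naive and from 2.32 to 3.07 with a median of 2.64 in α9k1-naive. Its log2FC of -0.95 ± 0.39 was just past the threshold (adjusted p = 0.0986), and 12 of the 19 fits without a single library lost the call.

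Smaller decreases were found in partners of the ULK1 kinase, in the conjugation cascade and in a receptor. Atg13, a partner of ULK1, was 4.87, 5.35, 4.76, 5.06 and 4.66 in GFP-naive and from 4.29 to 5.16 with a median of 4.94 in α9k1-naive, and its log2FC of -0.36 ± 0.14 (adjusted p = 0.0761) was -0.08 without covariates. Atg101 fell by 0.28, the protease gene Atg4d by 0.48 and the receptor gene Tax1bp1 by 0.26 on the log2 scale (adjusted p of 0.0802, 0.0560 and 0.0443). Tax1bp1 was the only member besides Ambra1 whose α9k1-naive libraries all lay below all GFP-naive libraries. In the opposite direction, Nbr1, Vmp1, Atg16l1, Vcp and Tbc1d14 did not overlap, which makes 7 of 41 genes (17.1%) at a background of 21.7%.

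**Figure D2:**
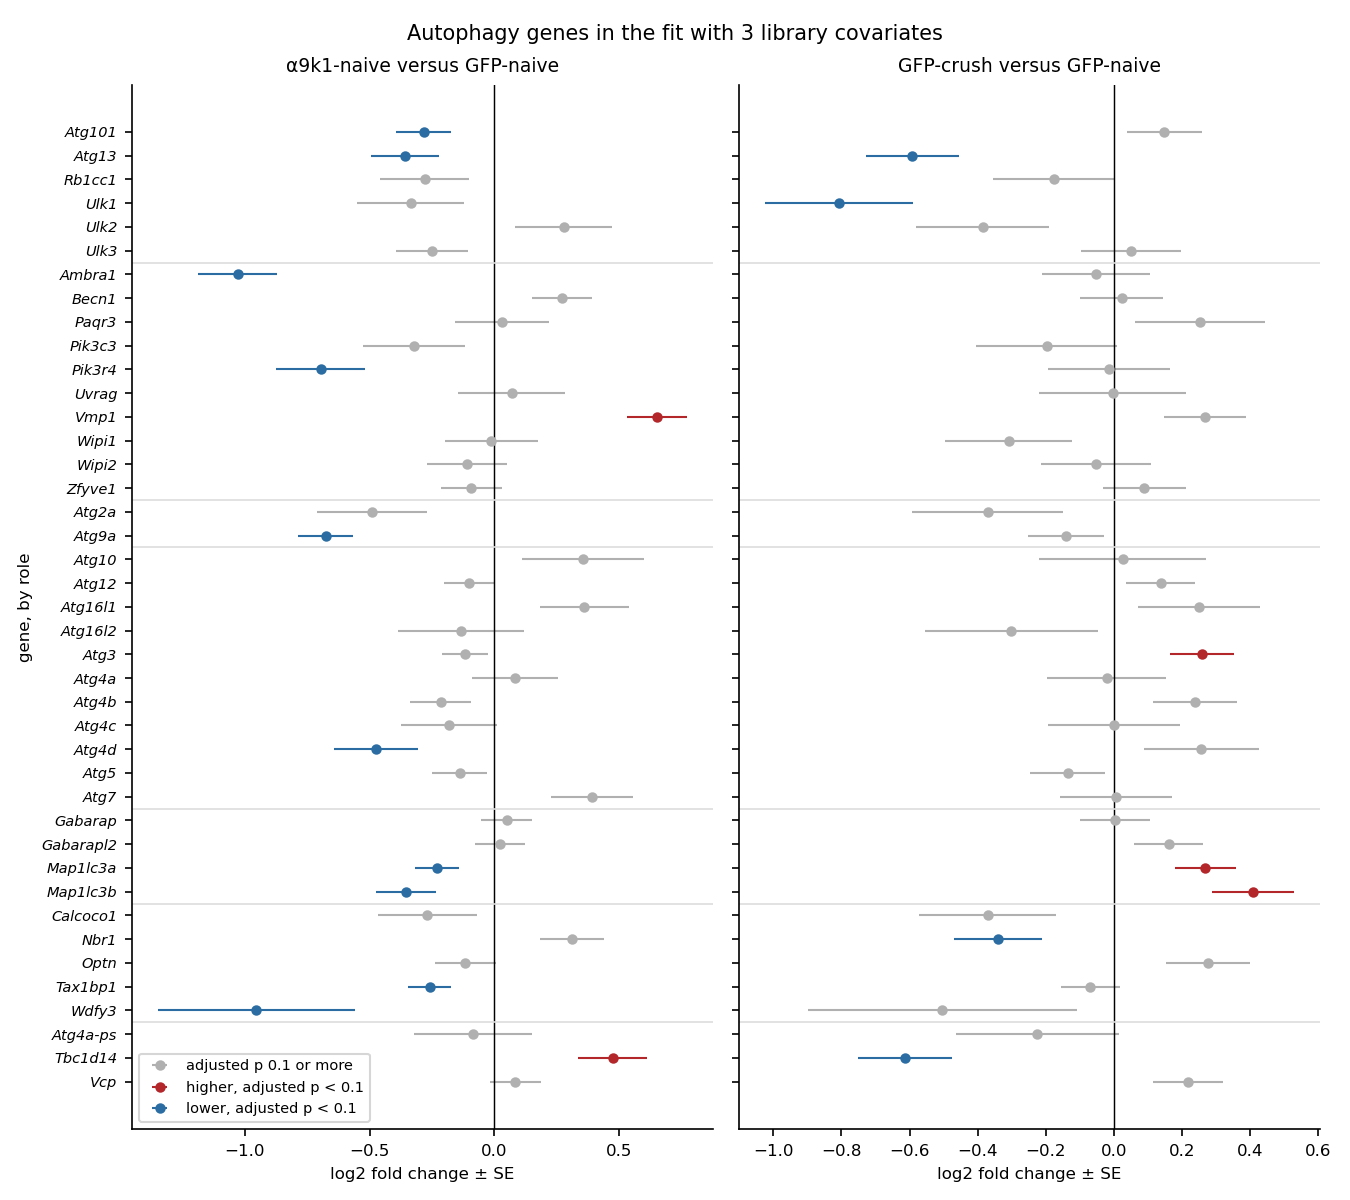
Log2 fold change ± SE (x axis) of the 41 autophagy genes, grouped by role (y axis), in α9k1-naive against GFP-naive (left) and GFP-crush against GFP-naive (right), from the fit with covariates. Red points are called higher and blue points lower at an adjusted p under 0.1. Without crush, α9k1 had 2 red and 10 blue points (29.3% of the members, 29.1% of all genes called). Crush in GFP neurons had 3 red and 4 blue points (17.1%, 23.1% of all genes called).

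Dorsal root crush in GFP neurons changed 7 of the 41 genes (17.1%), 3 upwards and 4 downwards, at a background of 23.1% of all genes (7.39% higher, 15.7% lower). The increases were Map1lc3b, Map1lc3a and Atg3, which encode 2 LC3 proteins and the enzyme that transfers them to lipid. The decreases were Ulk1, Tbc1d14, Atg13 and the receptor gene Nbr1. Centring libraries on their medians gave 9 increases and 3 decreases (23.8% of all genes called), and removing the length and GC trend gave 8 and 3 (19.6%). Under both, the 3 increases and the decreases of Ulk1, Tbc1d14 and Atg13 were kept and that of Nbr1 was lost. Without covariates, 3 were higher and 6 lower, at a background of 31.1% (11.0% higher, 20.1% lower). With covariates, 7 of the 12 neuronal and 4 of the 7 macrophage markers rose, 4 of the 8 glial and all 4 endothelial and fibroblast markers fell, and 1 glial marker rose.

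Map1lc3b was 7.46, 7.43, 7.29, 7.25 and 7.47 in GFP-naive and 7.84, 7.98, 7.53 and 7.57 in GFP-crush, with no overlap (log2FC = 0.41 ± 0.12, adjusted p = 0.0365). Map1lc3a was 9.47, 9.55, 9.62, 9.40 and 9.56 in GFP-naive and 9.98, 9.85, 9.89 and 9.99 in GFP-crush, again without overlap (log2FC = 0.27 ± 0.09, adjusted p = 0.0583). Atg3 was 6.87, 6.77, 6.62, 6.88 and 6.69 in GFP-naive and 6.91, 7.03, 6.94 and 6.99 in GFP-crush (log2FC = 0.26 ± 0.09, adjusted p = 0.0764). All 3 increases were small, between 1.20-fold and 1.33-fold, and none of them was called without GFP-naive replicate 2 or without GFP-crush replicate 2, while of the 3 Map1lc3b alone was called without GFP-naive replicate 3 or GFP-crush replicate 4.

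Ulk1 (chr5:110784488-110810097, minus strand), the kinase that starts autophagosome formation, was 3.32, 3.75, 3.02, 3.41 and 3.06 in GFP-naive and 2.54, 2.94, 2.75 and 1.98 in GFP-crush. All 4 crush libraries were below all naive ones (log2FC = -0.81 ± 0.22, adjusted p = 0.0235). Its partner Atg13 was 4.18, 4.91, 4.47 and 4.04 in GFP-crush, against 4.66 to 5.35 in GFP-naive, which overlapped in a single library (log2FC = -0.59 ± 0.14, adjusted p = 0.0119). Tbc1d14 fell by 0.61 on the log2 scale (adjusted p = 0.0104). These 3 decreases were called in all 19 fits that left out a library. Nbr1 was 5.99, 6.01, 5.74, 6.23 and 6.16 in GFP-naive and 5.21, 5.85, 5.49 and 5.44 in GFP-crush, and its decrease (-0.34 ± 0.13, adjusted p = 0.0907) was lost in 12 of those 19 fits. In all, libraries of the 2 groups did not overlap for 4 genes upwards and 2 downwards (14.6% of the members, background 19.8%).

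After crush, 19 of the 41 genes were higher in every α9k1 library than in every GFP library, among them 4 of the 6 initiation genes and 7 of the 10 genes of PI3P production and phagophore assembly. Another 5 were lower in every library, among them 3 of the 4 ATG8 genes. These 24 genes are 58.5% of the members, at a background of 40.8%, and 12.2% of the members against 20.8% of all genes were lower. All 13 members that the study chose on these samples are among the 19 higher genes, and none is among the 5 lower. They include Rb1cc1 and Ulk2 of the 4 higher initiation genes. They also include all but Pik3r4 of the 7 higher genes of PI3P production and phagophore assembly. The excess over the background and the counts of higher genes by role are therefore not independent evidence of a direction. With covariates, limma called none of the 41 genes in either direction, at a background of 0.911% (0.728% higher, 0.182% lower). The smallest adjusted p was 0.219 (Tbc1d14) and 1 gene had an unadjusted p under 0.05. The log2FC was above 0 for 23 of the 41 genes, with a median of 0.08, and the median SE was 0.35, against 0.15 without covariates. Without covariates, 20 of them passed the test upwards and 5 downwards (61.0%, background 58.0%). The share was close to the background, and its split was 48.8% higher and 12.2% lower for the members against 29.6% and 28.3% for all genes. This split is not independent evidence of a direction, since the 13 members that the study chose on these samples were all higher. Of the other 28, 25% were higher and 17.9% lower. The median log2FC was 0.37 for the members, 0.11 for the other 28 and 0.03 for all genes. In the same fit 6 of the 8 glial markers were lower in α9k1-crush (mean Fabp7 7.01, against 8.64 in GFP-crush). Of the 12 neuronal markers 5 were higher and 1 lower with a median log2FC of 0.40, and 2 of the 7 macrophage markers and 1 of the 4 endothelial and fibroblast markers were higher. Their part in these counts was not tested.

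The count without covariates was 19 to 22 higher and 4 to 6 lower in the 19 fits that left out a single library. Centring libraries gave 19 higher and 7 lower (background 56.9%). Adjusting for the first 2 components left 4 higher genes (Atg13, Nbr1, Paqr3 and Tbc1d14) and 1 lower (Gabarap), at a background of 9.85%. Transcript length moved with the result. Over all genes, the median log2FC without covariates was -0.45 among the 25% of genes with the shortest transcripts and 0.32 among the 25% with the longest. The longest annotated transcript ranged from 2614 to 7607 bases (median 4392.5) in the 20 higher members and from 1112 to 2826 bases (median 1677) in the 5 lower members. In the 16 members not called it ranged from 1270 to 14274 bases (median 3544.5), which overlaps both ranges. With each library's trend with length and GC content removed, 16 of the 20 stayed higher, 4 of the 5 (Gabarap, Gabarapl2, Map1lc3a and Ulk3) stayed lower and Tax1bp1 and Wipi1 joined the lower genes (background 51.0%).

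**Figure D3:**
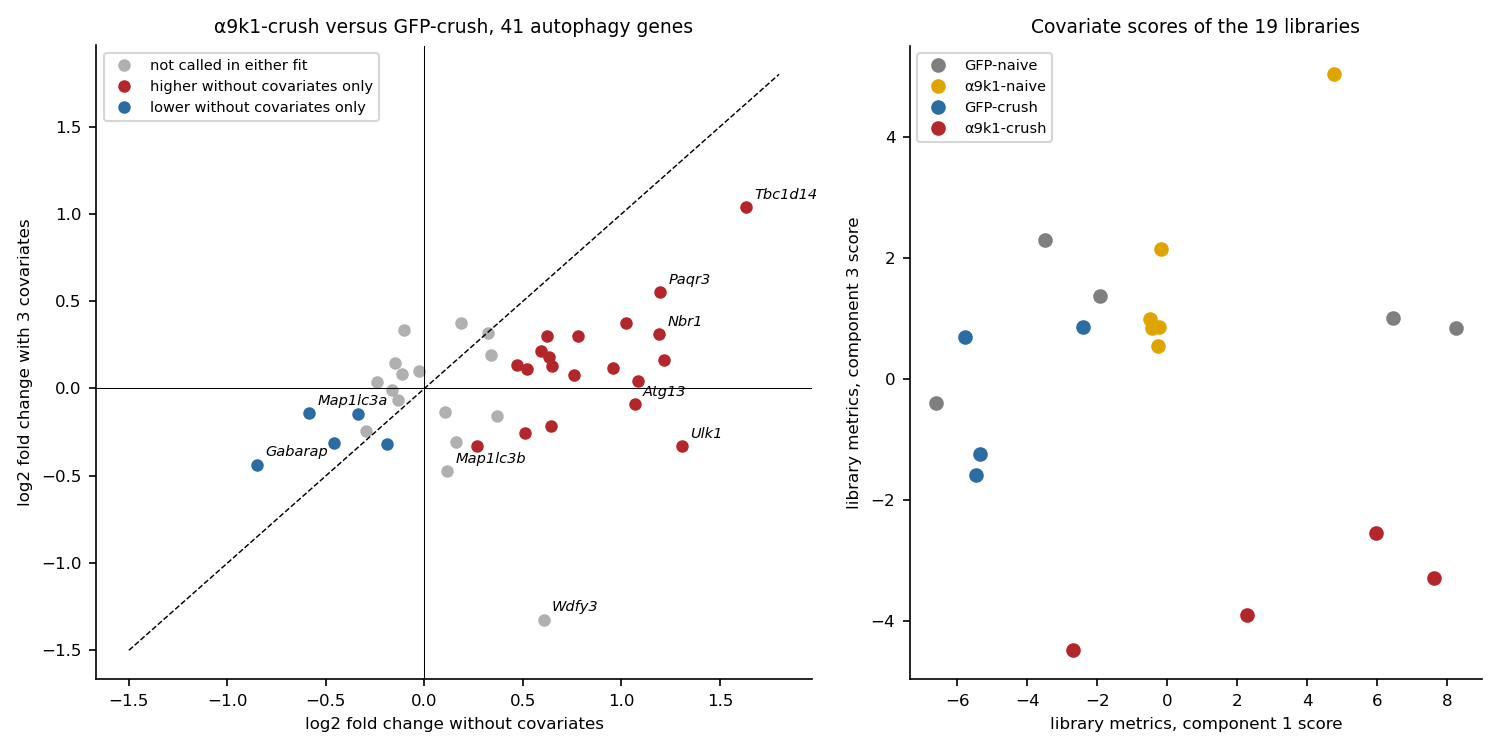
Left: log2 fold change of the 41 autophagy genes in α9k1-crush against GFP-crush without covariates (x axis) and with the 3 covariates (y axis); the dashed line marks equal values and colours mark genes called without covariates. Right: scores of the 19 libraries on component 1 (x axis) and component 3 (y axis) of the library metrics. All 20 genes called higher without covariates lie below the dashed line, and the 4 α9k1-crush libraries lie below all others on component 3.

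In the initiation complex, Ulk1 was 2.54, 2.94, 2.75 and 1.98 in GFP-crush and 3.80, 4.05, 3.97 and 3.62 in α9k1-crush, and from 2.54 to 3.90 with a median of 3.35 in α9k1-naive. The crush groups did not overlap, but the difference of 1.31 ± 0.28 without covariates (adjusted p = 9.08e-04) became -0.33 ± 0.47 with them. Ulk2, its paralog, was 3.98, 3.76, 3.28, 3.65 and 3.91 in GFP-naive, 2.69, 2.88, 3.25 and 3.52 in GFP-crush and 4.02, 3.96, 4.32 and 4.12 in α9k1-crush. In α9k1-naive it ranged from 3.75 to 4.37 with a median of 4.27. Its values were thus alike in both α9k1 groups and on average lowest in GFP-crush (log2FC between the crush groups 1.02 ± 0.18 without and 0.38 ± 0.42 with covariates).

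Rb1cc1 (chr1:6206197-6276648, plus strand) encodes FIP200, the scaffold of the complex. It was 5.16, 5.12, 4.88, 4.85 and 4.79 in GFP-naive, from 4.42 to 5.35 with a median of 5.11 in α9k1-naive, 4.13, 4.84, 4.69 and 4.77 in GFP-crush and 6.01, 5.51, 5.98 and 5.79 in α9k1-crush, where every library lay above all 15 others. The difference between the crush groups was 1.21 ± 0.19 without covariates (adjusted p = 6.21e-05) and 0.17 ± 0.39 with them. Atg13 was 5.54, 5.23, 5.78 and 5.32 in α9k1-crush, above all GFP-crush libraries (1.07 without and -0.09 with covariates). Atg101 and the related kinase gene Ulk3 went the other way without covariates, at -0.16 and -0.34, and of these Ulk3 was called (adjusted p = 0.0317).

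Of the 10 genes of PI3P production and phagophore assembly, 8 were higher in α9k1-crush than in GFP-crush without covariates and none was lower. Of all genes, 29.6% were higher and 28.3% lower. All of the 8 but Pik3r4 and Wipi2 were chosen by the study on these samples, so their direction is not independent evidence. Becn1 (Beclin 1) was 6.99, 6.87, 7.05, 6.68 and 7.11 in GFP-naive, from 7.09 to 7.42 with a median of 7.32 in α9k1-naive, 6.85, 7.04, 6.75 and 6.84 in GFP-crush and 7.56, 7.31, 7.54 and 7.54 in α9k1-crush. It was higher with α9k1 both without crush (0.36 ± 0.09, adjusted p = 0.00502) and after crush (0.62 ± 0.11, adjusted p = 1.59e-04) without covariates, and 0.27 ± 0.12 and 0.30 ± 0.26 with them (adjusted p = 0.126 and 0.798). Pik3c3, the lipid kinase VPS34 itself, was 4.49, 4.46, 4.77, 4.41 and 4.73 in GFP-naive, from 4.09 to 4.87 with a median of 4.52 in α9k1-naive, 4.47, 4.77, 3.81 and 3.94 in GFP-crush and 4.99, 4.90, 5.04 and 5.16 in α9k1-crush. The α9k1-crush libraries were the 4 highest of all 19 (0.78 ± 0.18 against GFP-crush without and 0.30 ± 0.45 with covariates).

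Pik3r4 was 3.60, 3.47, 3.29 and 3.59 in GFP-crush and 4.85, 4.54, 4.81 and 4.09 in α9k1-crush (1.08 ± 0.21 without covariates, 0.04 ± 0.39 with them). Uvrag, a Beclin 1 partner, was 4.06, 4.25, 3.77, 3.99 and 4.12 in GFP-naive, from 3.97 to 4.43 with a median of 4.33 in α9k1-naive, 3.15, 4.33, 4.23 and 4.12 in GFP-crush and 4.86, 4.76, 5.02 and 5.03 in α9k1-crush. One GFP-crush library lay far below the other 3, and the lowest α9k1-crush library still lay above all other libraries. Paqr3 (chr5:97082329-97111596, minus strand), a Golgi protein that binds the VPS34 complex, was 4.75, 4.56, 4.72, 4.61 and 4.62 in GFP-naive, from 4.63 to 5.20 with a median of 4.82 in α9k1-naive, 5.04, 5.09, 4.93 and 4.42 in GFP-crush and 6.23, 5.52, 6.35 and 6.17 in α9k1-crush. It was higher in α9k1-crush than in any other group (1.20 ± 0.18 against GFP-crush and 1.19 ± 0.16 against α9k1-naive without covariates, 0.55 ± 0.41 and 0.78 ± 0.34 with them).

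Zfyve1 encodes DFCP1, which binds PI3P where autophagosomes form. It was 3.98, 3.87, 3.68, 3.97 and 3.97 in GFP-naive, from 3.82 to 4.39 with a median of 4.04 in α9k1-naive, 3.86, 3.85, 3.47 and 3.89 in GFP-crush and 4.37, 4.34, 4.60 and 4.34 in α9k1-crush, so that the crush groups did not overlap (0.65 ± 0.13 without and 0.13 ± 0.26 with covariates). The PI3P-binding genes Wipi2 and Wipi1 differed by 0.51 (adjusted p = 0.0157) and -0.30 (adjusted p = 0.112) without covariates. Vmp1 was higher in α9k1-crush by 0.59 ± 0.11 without and 0.22 ± 0.26 with covariates, and Ambra1 was not called in either fit. Of the lipid suppliers, Atg9a was 5.28, 5.46, 5.01 and 5.27 in GFP-crush and 5.88, 5.69, 6.09 and 5.92 in α9k1-crush, which did not overlap. Its difference of 0.64 ± 0.16 without covariates (adjusted p = 0.00359) was -0.22 ± 0.24 with them. Atg2a, which transfers lipid into the growing membrane, was not called.

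**Figure D4:**
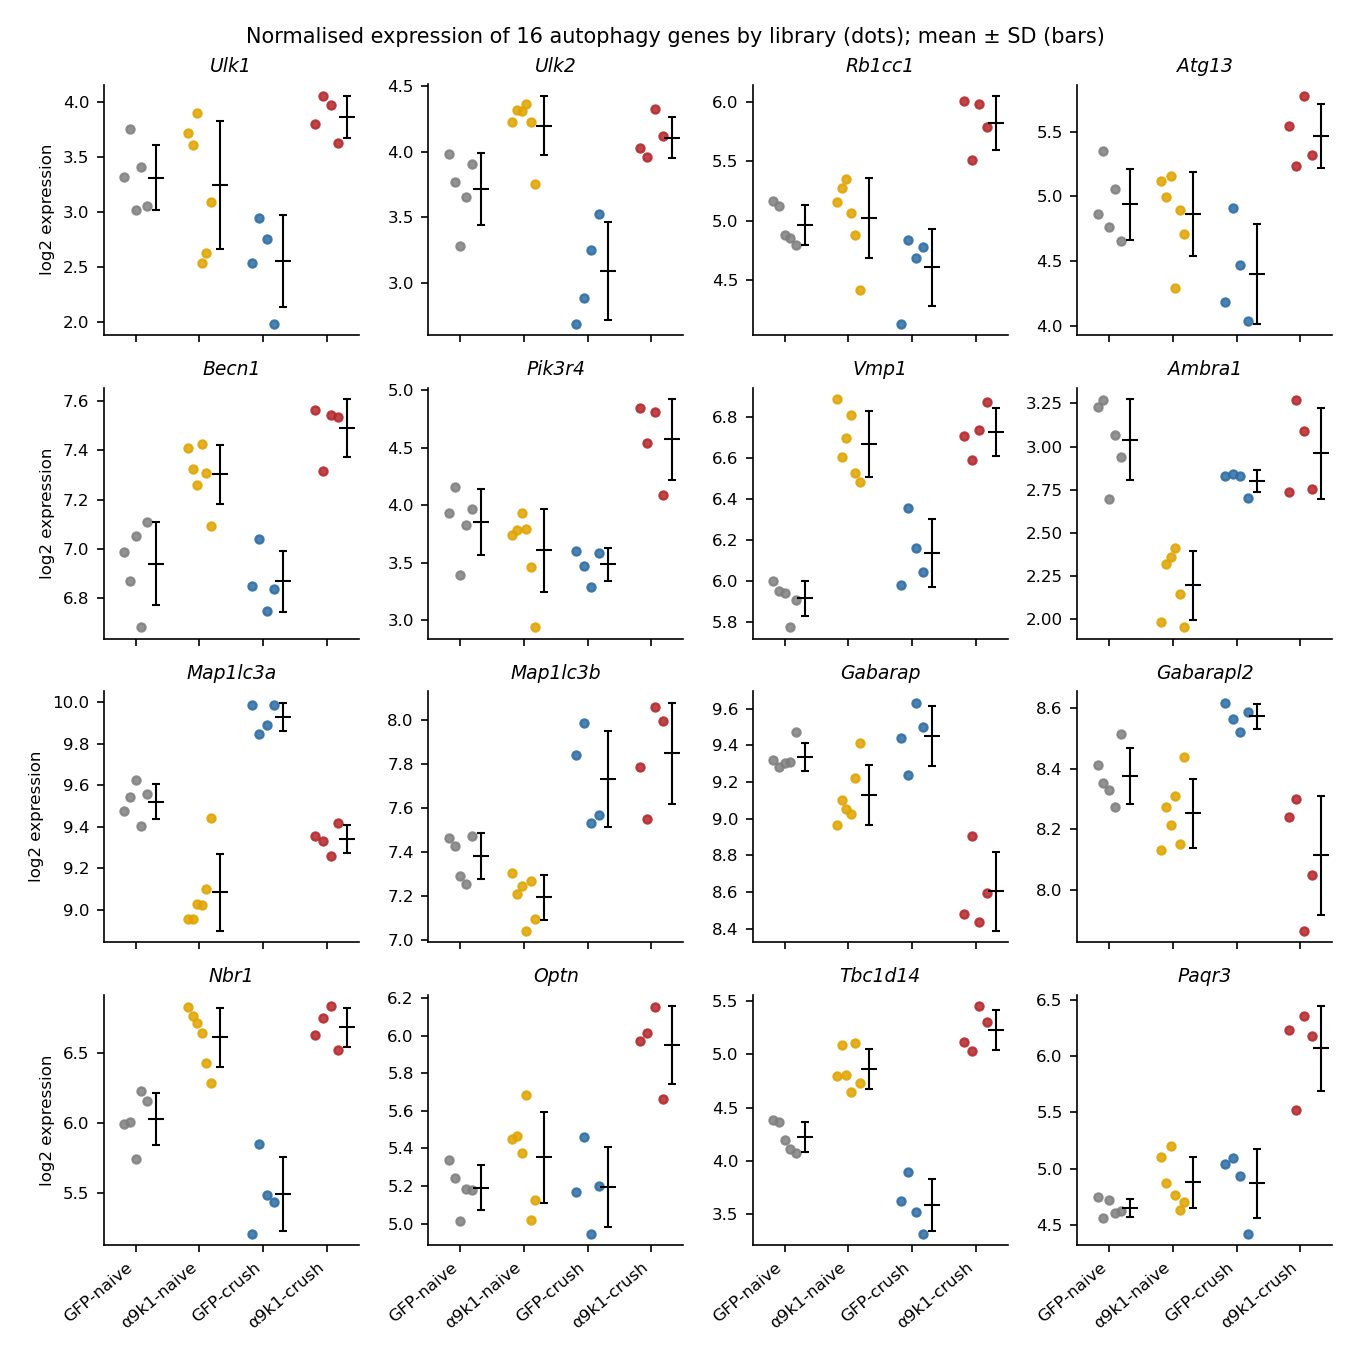
Normalised log2 expression (y axis, separate scale for each gene) of 16 autophagy genes in every library, by group (x axis). Dots are libraries and bars give the mean ± SD. Rb1cc1, Pik3r4 and Paqr3 were highest in α9k1-crush, Gabarap was lowest there, and Becn1, Vmp1, Nbr1 and Tbc1d14 were high in both α9k1 groups.

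Among the receptors, Nbr1 was from 6.29 to 6.83 with a median of 6.68 in α9k1-naive and 6.63, 6.75, 6.84 and 6.52 in α9k1-crush, above every library of the corresponding GFP group. Without covariates it was higher by 0.59 ± 0.13 without crush (adjusted p = 0.00134) and by 1.19 ± 0.15 after crush (adjusted p = 7.65e-06), and with them by 0.31 ± 0.13 and 0.31 ± 0.28 (adjusted p = 0.102 and 0.809). Optn, which encodes optineurin, was 5.34, 5.24, 5.01, 5.18 and 5.18 in GFP-naive, from 5.02 to 5.68 with a median of 5.41 in α9k1-naive, 5.17, 5.46, 4.95 and 5.20 in GFP-crush and 5.97, 6.01, 6.15 and 5.66 in α9k1-crush. Its libraries overlapped in the first 3 groups, and 3 of the 4 α9k1-crush libraries lay above all others (0.76 ± 0.14 without and 0.08 ± 0.27 with covariates). Calcoco1, Tax1bp1 and Wdfy3 were not called between the crush groups. Wdfy3 was 1.90, 2.74, 2.94 and 3.14 in GFP-crush and 3.86, 3.03, 3.74 and 2.51 in α9k1-crush, and its log2FC changed from 0.61 ± 0.38 without covariates to -1.33 ± 0.86 with them, with neither past the threshold.

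Vcp, an ATPase that extracts ubiquitinated proteins and takes part in autophagosome maturation, was 8.14, 7.99, 8.00, 7.97 and 8.15 in GFP-naive, from 8.19 to 8.38 with a median of 8.27 in α9k1-naive, 8.25, 8.39, 7.95 and 8.08 in GFP-crush and 8.76, 8.66, 8.93 and 8.84 in α9k1-crush. It was highest in α9k1-crush without overlap with any other group (0.63 ± 0.10 without and 0.18 ± 0.22 with covariates). For Tbc1d14 the difference between the crush groups was 1.63 ± 0.14 (adjusted p = 1.42e-07), a 3.10-fold difference, without covariates, and 1.04 ± 0.30 (adjusted p = 0.219) with them.

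Of the 11 genes of the conjugation cascade, 3 were higher and 1 lower in α9k1-crush without covariates (27.3% and 9.09%). The shares of all genes were 29.6% and 28.3%, so the share higher was near that of genes at large. Atg7, the enzyme that activates ATG12 and the ATG8 proteins, was 3.86, 4.20, 3.78, 3.71 and 3.27 in GFP-naive, from 4.05 to 4.69 with a median of 4.45 in α9k1-naive, 3.63, 3.67, 3.58 and 3.88 in GFP-crush and 4.12, 4.26, 4.29 and 4.18 in α9k1-crush. It was higher with α9k1 in both conditions without covariates (0.65 and 0.52, adjusted p = 0.00121 and 0.0120), and with them by 0.39 ± 0.16 and 0.11 ± 0.36 (adjusted p = 0.104 and 0.963). Atg4b and Atg12 were the other higher genes (0.47 and 0.27). Atg3 was 6.82, 6.59, 6.85 and 6.86 in α9k1-crush and from 6.66 to 6.83 with a median of 6.75 in α9k1-naive, against 6.91 to 7.03 in GFP-crush (-0.19 ± 0.09 without and -0.32 ± 0.20 with covariates). Atg5, Atg10, Atg16l1, Atg16l2, Atg4a, Atg4c and Atg4d differed from GFP-crush by -0.24 to 0.34 without covariates and were not called. Atg4a and the pseudogene Atg4a-ps are near-identical copies, and how the counting shared reads between them is not known, so their values are uncertain.

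Of the 4 ATG8 genes, 3 were lower with α9k1 after crush in the fit without covariates and none was higher. In that fit 28.3% of all genes were lower and 29.6% higher. Gabarap (chr11:69991143-69994951, plus strand) was 9.32, 9.28, 9.31, 9.31 and 9.47 in GFP-naive, from 8.97 to 9.41 with a median of 9.08 in α9k1-naive, 9.44, 9.24, 9.63 and 9.50 in GFP-crush and 8.48, 8.91, 8.44 and 8.60 in α9k1-crush, whose libraries were the 4 lowest of all 19. The difference from GFP-crush was -0.85 ± 0.12 without covariates (adjusted p = 2.54e-05) and -0.44 ± 0.22 with them (adjusted p = 0.594). Gabarapl2 was 8.41, 8.35, 8.33, 8.28 and 8.51 in GFP-naive, from 8.13 to 8.44 with a median of 8.24 in α9k1-naive, 8.62, 8.57, 8.52 and 8.59 in GFP-crush and 8.24, 8.30, 7.87 and 8.05 in α9k1-crush (-0.46 ± 0.10 without and -0.31 ± 0.22 with covariates). Map1lc3a was from 8.95 to 9.44 with a median of 9.02 in α9k1-naive and 9.36, 9.33, 9.26 and 9.42 in α9k1-crush. It lay below the GFP libraries after crush in every library (-0.59 ± 0.10 without and -0.14 ± 0.19 with covariates), and its decrease without crush was -0.23 ± 0.09 (adjusted p = 0.0807), a call that was lost in 11 of the 19 fits that left out 1 library. Map1lc3b differed from its paralog: it was from 7.04 to 7.30 with a median of 7.23 in α9k1-naive, with a fitted difference from GFP-naive of -0.35 ± 0.12 (adjusted p = 0.0484) that was not called without covariates (-0.19 ± 0.10, adjusted p = 0.172), and 7.78, 7.55, 8.06 and 8.00 in α9k1-crush, which overlapped GFP-crush (0.12 ± 0.12 without and -0.47 ± 0.26 with covariates). Gabarap, Gabarapl2 and Map1lc3a have longest transcripts of 1351, 1677 and 1112 bases and Map1lc3b one of 4138 bases.

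**Figure D5:**
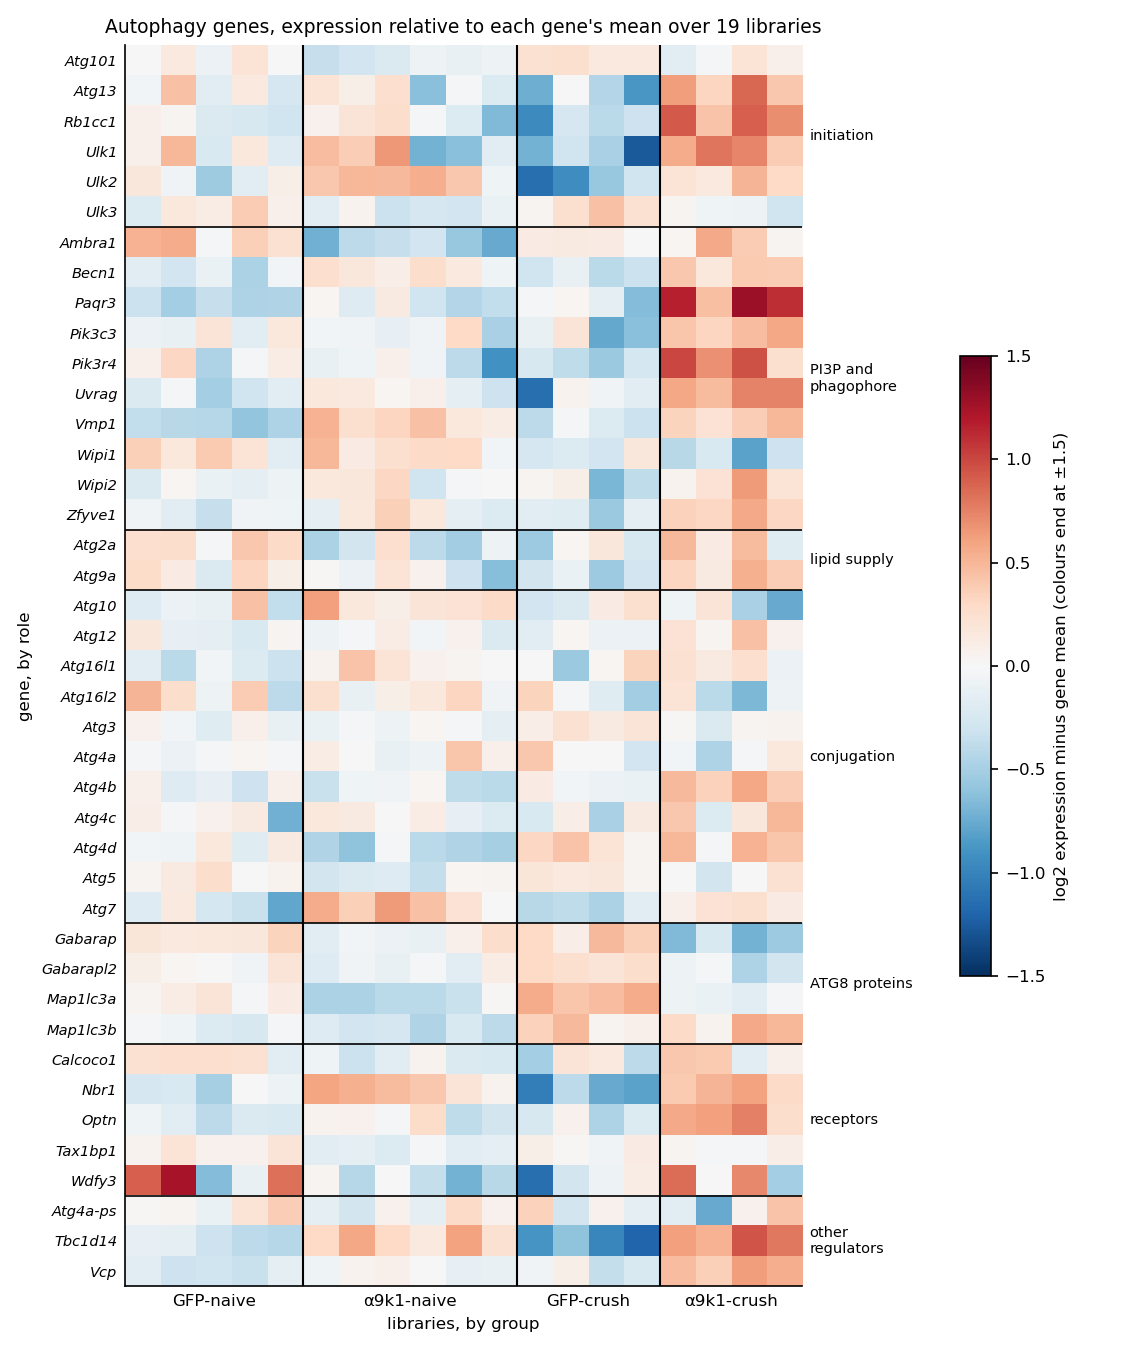
Expression of the 41 autophagy genes (rows, by role) in the 19 libraries (columns, by group), as log2 expression minus the mean of the gene over all libraries; colours end at ±1.5. Red marks values above the mean of the gene and blue values below it. In α9k1-crush, 22 of the 41 genes (53.7%) had their highest group mean, against 31.6% of all genes. Of the 13 genes that the study chose on these samples, all but Ulk2 and Atg7 are among the 22.

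The highest of the 4 group means fell in α9k1-crush for 22 of the 41 genes (53.7%) and for 31.6% of all genes. This count uses the deposited values without covariates. Of the members, 13 (Atg7, Becn1, Nbr1, Tbc1d14, Vmp1, Ulk2, Rb1cc1, Uvrag, Zfyve1, Pik3c3, Optn, Vcp and Paqr3) are named by the study in its autophagy group. It chose them on these samples, so their direction is not independent evidence. Between the crush groups, all 13 were higher without covariates and none was called with them, and of the other 28 members 7 were higher and 5 lower without covariates. The study's text also names ULK1, LC3 and Gabarap among its autophagy molecules, so the other 28 are not wholly free of its choice.

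Crush within α9k1 neurons gave no called member with covariates (background 9.74%, of which 4.47% higher and 5.27% lower). The smallest adjusted p was 0.141 and 6 genes had an unadjusted p under 0.05. Without covariates, crush came with 22 higher and 3 lower genes in α9k1 neurons (61.0%, background 55.6%, of which 28.5% higher and 27.1% lower). The higher genes included Paqr3 (1.19 ± 0.16), Pik3r4 (0.96 ± 0.19), Rb1cc1 (0.80 ± 0.17), Ambra1 (0.77 ± 0.13), Atg4d (0.76 ± 0.13), Map1lc3b (0.65 ± 0.11), Uvrag (0.64 ± 0.18) and Optn (0.60 ± 0.13), and the lower genes were Wipi1 (-0.67 ± 0.14), Atg10 (-0.54 ± 0.18) and Gabarap (-0.53 ± 0.11). In that fit 10 of the 12 neuronal, 4 of the 7 macrophage and 3 of the 4 endothelial and fibroblast markers were also higher, and of the 8 glial markers 5 were lower and 2 higher. Of the 13 members in the study's group 8 were higher, and of the other 28 members 14 were higher and 3 lower. Libraries did not overlap for 10 genes upwards and 2 downwards (29.3%, background 33.4%). Of the 8 genes that were higher with α9k1 in the naive groups without covariates, Tbc1d14 and Vcp were higher still in α9k1-crush (0.36 ± 0.13 and 0.52 ± 0.09). The other 6 were not called between the α9k1 groups in either fit, among them Nbr1 (0.07 ± 0.13), Vmp1 (0.06 ± 0.10), Becn1 (0.19 ± 0.10) and Ulk2 (-0.09 ± 0.17).

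The interaction, that is the difference that α9k1 made after crush less the one it made in naive neurons, called no member with covariates in limma (background 2.20%, of which 1.35% positive and 0.847% negative). The smallest adjusted p was 0.312 and 2 genes had an unadjusted p under 0.05. Without covariates, 21 genes had a positive and 2 a negative interaction (56.1%, background 39.4%, of which 23.3% positive and 16.1% negative). Of the 13 members in the study's group 10 were positive, and of the other 28 members 11 were positive and 2 negative (39.3% and 7.14%). In that fit 6 of the 12 neuronal markers had a positive and 1 a negative interaction, 4 of the 7 macrophage markers a negative one, 2 of the 8 glial markers a positive and 3 a negative one, and the 4 endothelial and fibroblast markers were positive in both fits. The largest of the members were Ulk1 (1.37 ± 0.37), Wdfy3 (1.36 ± 0.50), Pik3r4 (1.33 ± 0.27), Rb1cc1 (1.15 ± 0.25) and Atg13 (1.14 ± 0.28), and Gabarap was the most negative (-0.64 ± 0.16). Ulk1 and Wdfy3 are among the 25% of genes with the lowest mean values. With the length and GC trend removed, 10 of the 21 stayed positive and Gabarap and Wipi1 were negative (background 31.9%), and with centred libraries 16 were positive and 5 negative (16.3% and 22.7% of all genes).

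Promoters are shown for the 3 members that were called between the crush groups without covariates and hold the sequence CACGTG, the core of the element bound by TFEB, a transcription factor of autophagy and lysosomal genes. RefSeq promoters (GRCm38.p6, 250 bases before to 50 after a transcription start) were at hand for 33 of the 41 members. CACGTG, which reads the same on both strands, was in those of Atg3, Atg5, Atg7 and Tbc1d14, 12.1% of members against 8.09% of all 27025 genes. GTCACGTG, on either strand and overlapping the former, was in those of Atg3 and Atg7 (6.06% against 2.55%), the forkhead sequence TGTTTAC in none (4.05% of genes), and AAGATGGC in those of Atg4b, Atg4d and Tbc1d14 (9.09% against 3.19%). The 250 bases upstream of the start are printed 5′ to 3′ on the strand of the gene, with CACGTG in capitals, for Tbc1d14 (chr5:36582398-36582647, minus strand), Atg7 (chr6:114670846-114671095, plus strand) and Atg3 (chr16:45158579-45158828, plus strand). They are mouse reference sequences, all 3 starts lie inside the span that the table gives for the gene, and a match is not a bound site.
Tbc1d14: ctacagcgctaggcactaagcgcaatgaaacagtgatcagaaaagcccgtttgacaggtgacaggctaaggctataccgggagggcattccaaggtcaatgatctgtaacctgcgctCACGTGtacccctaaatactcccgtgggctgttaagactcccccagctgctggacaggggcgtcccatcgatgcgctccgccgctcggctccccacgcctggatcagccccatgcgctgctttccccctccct
Atg7: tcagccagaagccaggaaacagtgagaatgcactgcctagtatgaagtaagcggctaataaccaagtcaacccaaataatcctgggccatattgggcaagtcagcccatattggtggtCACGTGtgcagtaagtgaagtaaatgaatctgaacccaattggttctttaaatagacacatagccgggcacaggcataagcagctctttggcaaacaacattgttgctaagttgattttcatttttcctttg
Atg3: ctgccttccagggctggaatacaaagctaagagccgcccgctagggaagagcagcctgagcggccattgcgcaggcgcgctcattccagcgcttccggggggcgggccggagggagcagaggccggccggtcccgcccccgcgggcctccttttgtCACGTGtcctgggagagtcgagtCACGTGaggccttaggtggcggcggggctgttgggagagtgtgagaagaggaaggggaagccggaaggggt
These 3 genes did not share one pattern: after crush, Tbc1d14 and Atg7 were higher and Atg3 lower in α9k1 than in GFP neurons without covariates.

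Other genes of the pathway were read from a list of 83 symbols, of which 73 were in the table. With covariates, 6 rose and 10 fell in α9k1-naive against GFP-naive (21.9% against 29.1% of all genes), 5 rose and 15 fell with crush in GFP neurons (27.4% against 23.1%), 4 fell with crush in α9k1 neurons (5.48% against 9.74%), and none was called between the crush groups (8 with an unadjusted p under 0.05) or in the interaction (6). In the crush comparison without covariates, 38 passed upwards and 10 downwards (65.8% against 58.0%). Without covariates, 27 were also higher and 15 lower after crush in α9k1 neurons (57.5% against 55.6%), and 25 had a positive and 3 a negative interaction (38.4% against 39.4%). Sqstm1, the receptor p62, was called in no comparison with covariates and was higher in α9k1-crush than in GFP-crush without them (0.23 ± 0.09, adjusted p = 0.0383). It ranged from 9.75 to 9.88 with a median of 9.78 in GFP-naive, from 9.79 to 10.05 with a median of 9.95 in α9k1-naive, from 9.81 to 9.99 with a median of 9.98 in GFP-crush and from 10.06 to 10.36 with a median of 10.12 in α9k1-crush. Mtor was not analysed here.

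Among the genes called in α9k1-naive neurons, the largest increases were in Sesn1, an inhibitor of mTORC1 (0.50 ± 0.13), Fam134b, a receptor for the endoplasmic reticulum (0.40 ± 0.15), and Wdr41, a partner of the C9orf72 complex (0.36 ± 0.13). The largest decreases among called genes were in Stx17, the SNARE of autophagosome fusion (-0.73 ± 0.20), Rubcn, an inhibitor of the VPS34 complex (-0.69 ± 0.15), and Zkscan3, a repressor of autophagy genes (-0.60 ± 0.12). Crush in GFP neurons lowered Bcl2, which binds Beclin 1 (-1.06 ± 0.25), Deptor, an mTOR inhibitor (-0.86 ± 0.28), and the transcription factor gene Foxo3 (-0.85 ± 0.19), and raised the receptor gene Nufip1 (0.43 ± 0.17), the mitochondrial kinase gene Pink1 (0.41 ± 0.12) and Vps41 of the tethering complex HOPS (0.37 ± 0.11). Of the 6 transcription factors of autophagy genes, Tfeb, Foxo3 and Zkscan3 fell with crush in GFP neurons, where 15.7% of all genes fell. Tfeb ranged from 3.33 to 3.79 with a median of 3.61 in GFP-naive, from 3.41 to 3.96 with a median of 3.56 in α9k1-naive, from 2.80 to 3.47 with a median of 3.13 in GFP-crush and from 2.63 to 3.24 with a median of 3.17 in α9k1-crush (GFP-crush against GFP-naive -0.58 ± 0.18, adjusted p = 0.0404). In α9k1 neurons, Fam134b (-0.95 ± 0.27), Zkscan3 (-0.90 ± 0.22) and the lysosomal membrane gene Lamp2 (-0.65 ± 0.18) were lower with crush, with adjusted p of 0.0544, 0.0284 and 0.0472. Without covariates, Fam134b (-0.68 ± 0.12) and Lamp2 (-0.75 ± 0.08) were also called and Zkscan3 was not (-0.14 ± 0.13, adjusted p = 0.397).

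The library kit does not mark the strand, so reads from genes that overlap cannot be told apart. Exon positions are shared with a gene on the other strand by Atg4d, Rb1cc1, Optn, Vcp, Map1lc3b, Atg9a, Becn1, Uvrag, Wdfy3, Atg16l2, Paqr3, Tax1bp1 and Atg4a-ps, and with one on the same strand by Vmp1, Tbc1d14 and Atg9a.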

How the data were processed

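Per the study's methods and the labels, RNA of GFP-sorted DRG neurons was amplified with a SMART-Seq v4 kit and sequenced in 1 pool. The authors aligned reads to the mouse genome (mm10, the same assembly as GRCm38) with STAR and counted genes with Salmon. They removed genes with low counts and deposited log2 values after adding a small pseudocount and correcting for gene length and depth with cqn, so counts per gene were not analysed here. The authors also deposited Picard metrics per library: counts of reads and bases, fractions, percent GC dropout and ratios of coverage. Deposited columns with the authors' own fold changes and p-values were not used. The expression table carries no gene names, and its rows were taken in the order of the gene table. Row means correlated with the authors' mean expression in that order (r = 0.959) and not with rows shifted (at most 0.0984) or shuffled (at most 0.0239).

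Group means of all 19 libraries were fitted over 12629 genes with limma 3.58.1 in R 4.3.3, with the first 3 principal components of 48 scaled metrics as covariates, after the study's design. The study's batch term is not in the labels and was left out. Calls were at a Benjamini-Hochberg adjusted p under 0.1, two-sided. Fold changes are on the log2(value + pseudocount) scale and are understated for low genes. Errors of log2FC are SE. The study describes the libraries of a group as biological replicates, and the labels do not name their animals; p-values measure the spread between libraries. Alternatives changed covariates, samples, filter, scaling, weights, variance model, threshold and pairing, and left out each library. A length and GC correction, single components and the versions without covariates were added after the data were seen. The test was checked on simulated data. Tables and figures used Python 3.11.15, pandas 2.3.3, numpy 2.4.6 and matplotlib 3.10.9.

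Members and lists were chosen with earlier results of these data known. Values per library are given for members called between the crush groups or in the interaction, in each other comparison the called members at either end of the log2FC scale (4 each), all ATG8 genes and the 13 genes of the study's autophagy group. Members called between the crush groups only without covariates are also described. Of other pathway genes, Sqstm1, Tfeb and, per comparison, the 3 highest and 3 lowest called log2FC are named.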

Additional observations from a re-analysis of the deposited data

Results flagged for a closer look

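In 8 of 96 group and gene combinations of 4 to 6 libraries, for the 24 genes with values per library, the highest or lowest library lay apart from the rest by more than Dixon's 95% critical value. Chance flags about 1 in 20. Of α9k1-naive, replicate 6 was high for Map1lc3a (9.44, the others 8.95 to 9.10) and low for Ulk2 (3.75, the others 4.22 to 4.37), and it is the library that stood apart on the second component of the library metrics. Of α9k1-crush, replicate 2 was low for Atg3 (6.59, the others 6.82 to 6.86) and for Becn1 (7.31, the others 7.54 to 7.56), and replicate 3 was high for Zfyve1 (4.60, the others 4.34 to 4.37). Of GFP-crush, replicate 3 was low for Zfyve1 (3.47, the others 3.85 to 3.89) and replicate 4 low for Ambra1 (2.70, the others 2.83 to 2.84). Of GFP-naive, replicate 5 was high for Gabarap (9.47, the others 9.28 to 9.32).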

How the results depend on the processing

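Counts are given as higher and lower members. For α9k1-crush against GFP-crush (0 and 0), they were 20 and 5 without covariates, 4 and 1 with 2 components, and 20 and 3, 17 and 5, and 17 and 4 with component 1, 2 or 3 alone. For α9k1-crush against α9k1-naive (0 and 0), they were 22 and 3 without covariates, 22 and 3 with 2 components, 21 and 3, 22 and 4, and 6 and 1 with component 1, 2 or 3 alone, 1 and 1 with array weights, 1 and 1 with a variance trend and robust fit, and 1 higher with quantile normalization. For the interaction (0 and 0), they were 21 and 2 without covariates, 11 and 1 with 2 components, and 16 and 2, 21 and 2, and 9 and 1 with component 1, 2 or 3 alone. For α9k1-naive against GFP-naive (2 and 10), the higher genes numbered 8 without covariates, 4 without low genes, with centring, array weights, the variance trend or the length and GC correction, 5 with quantile normalization, and 8, 6 and 8 with component 1, 2 or 3 alone. The lower genes numbered 5 at an adjusted p under 0.05 or with only both groups fitted, and 3 with centring or the length and GC correction. For GFP-crush against GFP-naive (3 and 4), the higher genes numbered 1 at an adjusted p under 0.05, 0 with only both groups fitted, 9 with centring and 8 with the length and GC correction, and the lower genes 2 with 2 components or with only both groups fitted. Without covariates, the lower genes of α9k1-crush against α9k1-naive (3) numbered 5 with the length and GC correction, and in the interaction (21 and 2) there were 10 higher with that correction, 5 lower with centring and 1 lower at an adjusted p under 0.05. Atg13 changed sign from its fitted value between the crush groups, to 1.07 without covariates, 0.92 with 2 components and 1.33, 0.74 and 0.59 with component 1, 2 or 3 alone, and between the naive groups to 0.029 with component 3 alone. Between the crush groups, Atg9a changed sign to 0.64 without covariates and 0.60, 0.34 and 0.76 with component 1, 2 or 3 alone, and Ulk1 to 1.31 without covariates and 1.53 and 1.02 with component 1 or 2 alone. The cause of these shifts was not tested. Leaving out each library gave 1 to 4 higher and 5 to 10 lower for the naive comparison, 0 to 4 and 3 to 5 for crush in GFP neurons, 0 to 2 and 0 to 1 for crush in α9k1 neurons, and 0 and 0 between the crush groups and in the interaction. Without covariates it gave 19 to 22 and 4 to 6 between the crush groups, 18 to 23 and 2 to 4 for crush in α9k1 neurons, and 17 to 22 and 1 to 3 in the interaction. Replicate numbers did not pair the libraries: deviations of 25 same-numbered pairs correlated between -0.27 and 0.15, 4 of them over 0.1, and 3 of 19 libraries matched their own number best. With the replicate block, the counts were 1 and 5 for the naive comparison, and without covariates 5 lower for crush in α9k1 neurons and 1 lower in the interaction. Of 1314 values of single genes under alternatives, 1067 kept their direction and side of the threshold, 116 lost and 73 gained a call in the same direction, and 58 changed sign. Of these 58, 57 were differences between the crush groups, which were not called with covariates, and 45 of the 57 were not called under the alternative either.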
